A study of Mus musculus with 45 samples.

Results

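The rows described here are 200 of the 23999 gene rows of an RNA-seq count table of mouse hepatic stellate cells (HSCs), chosen by their rise under Western diet and their flat ends in the other models. Counts were divided by the library total and scaled to one fixed sum (CPM), and the level L of a row in a group was log2(mean CPM + 1). W, C and V were L at 24 weeks of diet minus chow, L at 8 weeks of CCl4 minus vehicle, and L at 12 days of culture minus cells held in suspension at the start. Of the 23999 rows, 13336 had an L of at least 3 in some group. Among these, 2491 had both C and V within 0.5 of 0, and the 200 with the highest W were taken. The values of W, C and V, and every measure from those 6 groups, therefore selected these rows and are given as a description. The level filter also looked at the remaining 7 groups, which the ranking did not use. Of the 200 rows, 162 passed this filter in a group used for the ranking and 38 passed it only in one of the remaining groups, 19 of them only at 12 weeks and 8 only at 16 weeks of WD.

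The study followed HSCs in diet-induced non-alcoholic steatohepatitis (NASH), in toxic injury and in culture, in 45 libraries of 13 groups, all from male mice with no introduced allele, of the strain labelled C57BL6/J and given as C57BL/6JBomTac in the methods. In the Western diet (WD) experiment, mice received WD with fructose in the drinking water for 12, 16 or 24 weeks, and the controls received chow and plain water, with 4 libraries per group and all mice of one age when taken. In the CCl4 experiment, mice were fasted and gavaged with CCl4 in corn oil for 1, 4 or 8 weeks (3, 4 and 3 libraries), and the controls received corn oil (4 libraries). In the in vitro (IVT) experiment, sorted HSCs from untreated mice were held 2 hours in suspension as the start (d0) or grown on plastic for 1, 4, 8 or 12 days (3 libraries each). HSCs were taken by density gradient and sorting of live cells on retinoid autofluorescence, so cells that had lost their retinoids were not collected. The IVT cultures are described both as technical triplicates and as biological replicates, so the p-values in IVT may measure the spread between wells only. The spread between libraries fitted by edgeR (common coefficient of variation) was 0.0766 in IVT, 0.208 in CCl4 and 0.300 in WD. Which description holds was not tested.

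HSCs lie between hepatocytes and the sinusoidal endothelium and store vitamin A in lipid droplets while quiescent. On injury they lose this store, divide, contract and deposit fibrillar collagen. After toxic damage most of the liver's myofibroblasts descend from them. WD with fructose loads the liver with fat and brings slow inflammation and fibrosis, CCl4 kills pericentral hepatocytes, and culture on stiff plastic activates HSCs without any other liver cell. The 200 rows were taken for a rise in the first of these settings and equal ends in the other two.

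The genes behind the rows are not named here, because the identifiers on the rows do not follow the counts. The row listed as Actb, which codes for cytoplasmic actin, held between 0 and 2 counts in the IVT libraries. In the WD libraries it held between 6 and 992 counts, and in the CCl4 experiment between 8 and 1383. The row listed as B2m, the light chain of MHC class I, held at most 1 count in any library. Rows listed as odorant or vomeronasal receptors, which are silent in most tissues, were nearly empty (under 1 count on average) in 34.1% of 1461 instances, and 32.4% of all rows were. Rows are therefore given by their position in the table, counted from the first row under the headers, and the same position was taken as the same gene in the 3 experiments. For the same reason the identity of the sorted cells was not checked against HSC markers, markers of other liver cells could not be counted, and roles or sequences of the 200 genes are not given. In bulk libraries a larger share of cells of one type and more RNA per cell cannot be told apart.

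WD raised most of the 200 rows from near absence to a moderate level. The median L over the 200 rows was 1.04 in chow-fed mice, 5.11 at 12 weeks, 4.68 at 16 weeks and 4.37 at 24 weeks of WD. It was 1.30 with vehicle and 0.90, 0.73 and 1.39 at 1, 4 and 8 weeks of CCl4. In IVT it was 0.43 at d0 and 0.26, 0.19, 0.19 and 0.35 at days 1, 4, 8 and 12. The chow, vehicle and d0 values show that the median of these rows was lowest in the cells held in suspension, and that it was low in all 3 starting groups. W ranged from 0.99 to 4.93 with a median of 2.63, which is a 6.19-fold difference of mean CPM + 1 at the median and a 30.5-fold difference at the top. W was 4 or more in 36 rows, between 2 and 4 in 110, between 1 and 2 in 50 and below 1 in 4.

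**Figure D1:**
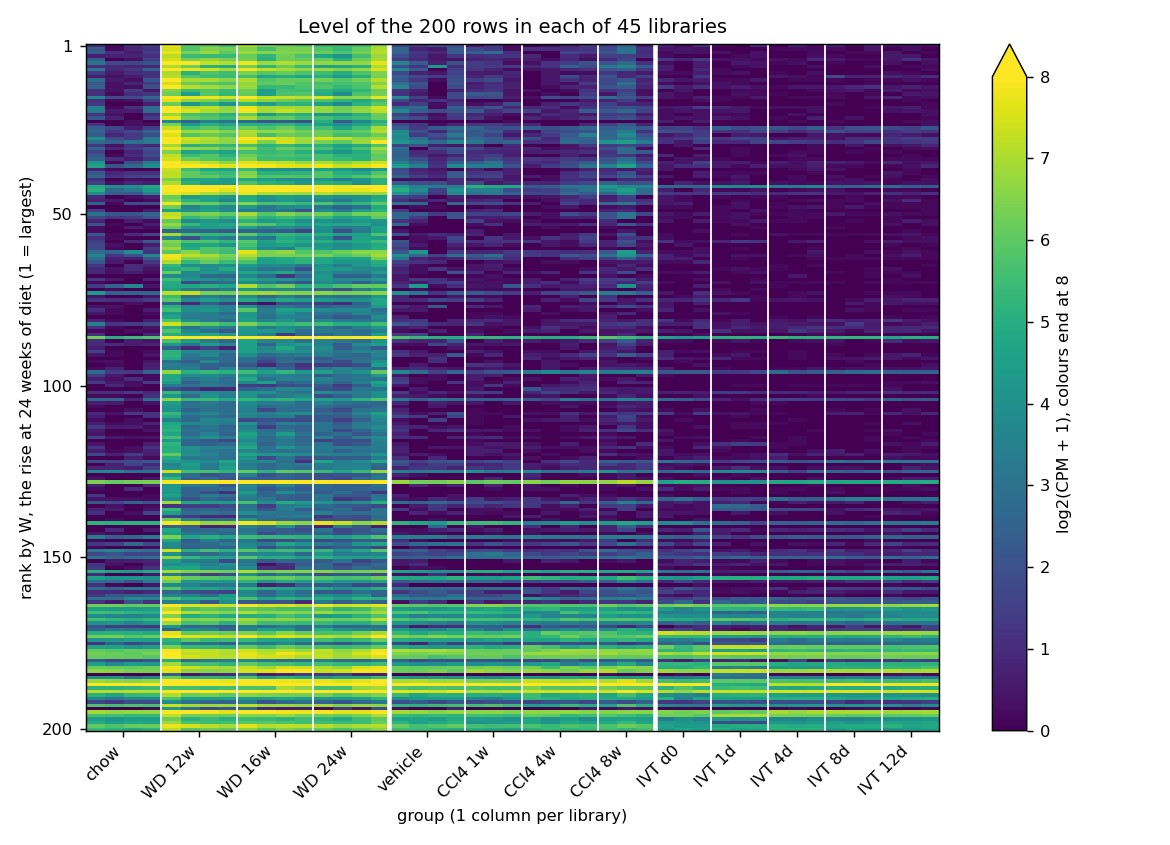
Heat map of log2(CPM + 1) for the 200 rows, ordered by W from top to bottom, in the 45 libraries grouped by condition (1 column per library, colours end at 8). The 12 WD libraries are bright in most rows, the median L falling from 5.11 at 12 weeks to 4.37 at 24 weeks, while the rows below about rank 165 are also bright in chow, CCl4 and IVT.

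Summed over the 200 rows, the libraries of the starting groups and of CCl4 and IVT held between 1660 and 3461 CPM. The 4 chow libraries held between 2174 and 2810 CPM. At 12 weeks of WD the sum was 25181, 13252, 11592 and 9563 CPM in replicates A to D. At 16 weeks it was 15905, 10993, 11667 and 10057 CPM, and at 24 weeks it was 10473, 8025, 9763 and 14137 CPM. Every WD library was therefore above every library of the other 10 groups. The rows took 1.49% ± 0.702 (SD, n = 4) of all counts at 12 weeks, 1.22% ± 0.259 at 16 weeks and 1.06% ± 0.257 at 24 weeks, against 0.245% ± 0.0275 in chow-fed mice.

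**Figure D2:**
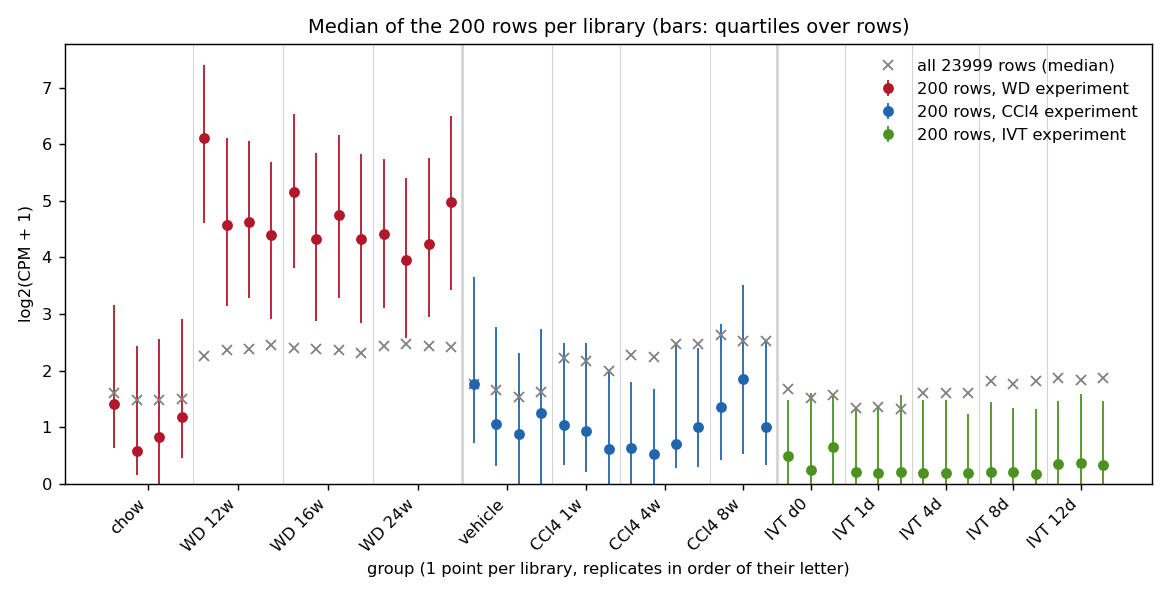
Median log2(CPM + 1) over the 200 rows in each of the 45 libraries (points, coloured by experiment), with the quartiles over the rows as bars, and the median of all 23999 rows as crosses. The WD libraries sit between 3.95 and 6.12, replicate A at 12 weeks is the highest, and no library of the other groups is above 1.84.

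Total counts were between 2318311 and 7576527 per library, and 3 counts, taken as the floor, were worth between 0.396 and 1.29 CPM. This floor covers counting error only. Many of the 200 rows lay near it outside WD. The mean count was at most 3 in 70 rows with chow, in 70 with vehicle and in 128 at d0. It was at most 3 in 76, 104 and 75 rows at 1, 4 and 8 weeks of CCl4, and in 122 rows or more on each day of culture. In 53 rows it was at most 3 in all 4 CCl4 groups, in 110 rows in all 5 IVT groups and in 45 rows in every group without WD, and 4 rows had no count in any IVT library. A flat C or V of such a row says that it was near the floor at both ends, and a change below this level was not detectable at this depth. Both ends were at the floor in 62 rows for CCl4 and in 119 rows for IVT. At the other end, 53 rows were above the floor in all 13 groups.

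The 6 rows with the largest W were nearly silent before WD. Row 20331, first by W, held 1.11, 0.162, 1.02 and 1.64 CPM in the 4 chow libraries. It held 216, 61.8, 64.3 and 45.1 CPM at 12 weeks, 132, 83.9, 70.0 and 58.4 CPM at 16 weeks and 40.8, 42.4, 46.6 and 108 CPM at 24 weeks. In CCl4 and IVT no library of this row was above 4.74 CPM, so WD and the other groups were far apart. Row 11606, the second, held 3.70, 0.162, 0.766 and 1.28 CPM with chow and 55.5, 40.3, 68.0 and 128 CPM at 24 weeks. Its highest value outside WD was 6.90 CPM, in replicate B at 8 weeks of CCl4, and all 3 libraries of day 1 in culture had no count. Row 374 held 70.1, 53.8, 78.1 and 142 CPM at 24 weeks, against 4.26, 1.14, 0.511 and 1.82 CPM with chow. Row 8060 held 25.1, 16.8, 48.5 and 111 CPM at 24 weeks, so that its 4 libraries spread over a wide range, yet its highest chow library was at 1.09 CPM. Row 6855 held 65.2, 32.1, 73.4 and 119 CPM and row 17545 held 104, 105, 104 and 210 CPM at 24 weeks. In all 6 rows replicate D was the highest library at 24 weeks and replicate A was the highest at 12 weeks.

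The rows with the highest level at 24 weeks were of another kind, expressed in all settings and raised further by WD. Row 9264 held 1107, 1013, 1075 and 1079 CPM at 24 weeks and 556, 439, 536 and 532 CPM with chow, a W of only 1.05. Row 19195 held 437, 238, 359 and 545 CPM at 24 weeks against 74.2, 31.5, 43.4 and 54.1 CPM with chow. Its means in CCl4 and IVT stayed between 22.1 and 46.7 CPM. Row 13414 held 408, 329, 375 and 426 CPM at 24 weeks against 84.0, 67.8, 76.6 and 82.2 CPM with chow. The 3 rows of highest group mean outside WD were row 9264, at 529 ± 78.7 CPM (SD, n = 4) with vehicle and 588 ± 201.1 CPM (SD, n = 3) at 8 weeks of CCl4, and rows 20346 and 14025. Row 20346 had 202 ± 30.7 CPM (SD, n = 3) at 8 weeks of CCl4 and 291 ± 49.5 CPM (SD, n = 4) at 24 weeks of WD. Row 14025 had its highest mean outside WD at day 1 of culture, 172 ± 6.45 CPM (SD, n = 3), against 173 ± 58.4 CPM (SD, n = 4) at 24 weeks of WD, so these means differed by less than their spread.

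The starting level differed between rows of large and small W. The rule takes part in this, since a row of small W could reach an L of 3 at 24 weeks only from a higher start. The 36 rows with W of 4 or more had a median L of 1.42 with chow, and the 110 rows between 2 and 4 had 0.51. The 50 rows between 1 and 2 had a median L of 3.90 with chow, 4.21 with vehicle and 3.28 at d0, and 5.27 at 24 weeks. The last rows taken were 18076, 15634 and 12114, with W of 0.994, 0.988 and 0.987, and the first rows left out were 8397, 12877 and 21957, with 0.985, 0.979 and 0.967. Row 12114 held 66.6, 51.0, 67.5 and 92.6 CPM at 24 weeks and between 28.1 and 40.4 CPM with chow. Row 8397 held 113, 87.9, 70.7 and 109 CPM against 40.3 to 60.5 CPM. The rows on either side of the limit differed little in W and varied in the rest of their profile. Row 21957, left out, had a mean of 74.4 CPM at 24 weeks of WD and of 87.0 CPM with vehicle and 110.3 CPM at 8 weeks of CCl4. At day 1 of culture row 8397 had a mean of 94.5 CPM and row 18076 of 2.62 CPM.

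The same rule turned to the other models gave shorter or longer lists. A rise of at least 1 with flat ends in the other 2 models was found in 196 rows for WD, 72 for CCl4 and 1153 for IVT, and a rise of at least 4 in 36, 9 and 54 rows. In the opposite direction, 49 rows fell by at least 1 at 24 weeks of WD with flat CCl4 and IVT ends. These numbers follow from the rule and carry no test.

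The rise was present at 12 weeks, the first diet time that was sequenced. At 12 weeks the level minus chow had a median of 3.34 over the 200 rows, and at 16 weeks it had a median of 2.94, against -0.02 and 0.05 over all rows with an L of at least 3 in some group. The rise was at least 1 in 197 rows at 12 weeks and in 195 rows at 16 weeks, and it was above the rise at 24 weeks in 175 and 158 rows. These differences share the chow libraries with W and are therefore not independent of how the rows were chosen. The 12-week means also include replicate A, the highest library of that group in 176 of the 200 rows. All 4 libraries lay above all 4 chow libraries in 195 rows at 12 weeks, in 193 at 16 weeks and in 199 at 24 weeks, against 22%, 28.4% and 26.5% of the 13336 rows that passed the level filter. The exception at 24 weeks was row 18680, noticed after its values were seen, which had 8.07 ± 6.57 CPM (SD, n = 4) at 24 weeks and 2.84 ± 1.64 CPM (SD, n = 4) with chow.

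**Figure D3:**
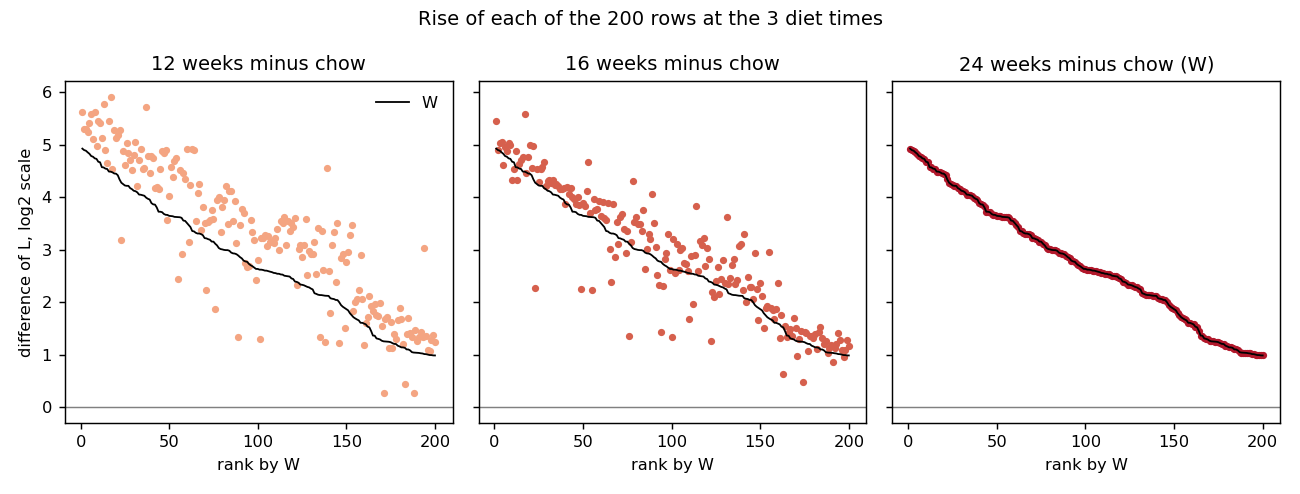
Difference of L to chow (log2 scale) at 12, 16 and 24 weeks of WD for each of the 200 rows, in the order of their rank by W, with W as a black line in each panel. Most points at 12 weeks (175 of 200) and 16 weeks (158 of 200) lie above the line. By these group means the rise at 24 weeks was the smallest of the 3 in most rows. The 12-week means include replicate A, the highest library of that group in 176 rows.

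Only 5 rows had a rise at 12 weeks of less than 0.5 times W. These were rows 8153, 11512, 16279, 21493 and 9676, named after their values were seen. Row 8153 had the highest W of them, at 2.89, with a rise of 1.34 at 12 weeks. It held 0.555 CPM in chow replicate A and no count in the other 3 chow libraries. It held 3.97, 0.825, 2.04 and 0.666 CPM at 12 weeks, 22.2, 11.8, 27.6 and 10.5 CPM at 16 weeks, and 14.2, 4.09, 7.81 and 3.75 CPM at 24 weeks. All 4 libraries at 12 weeks already lay above the chow libraries, though 1 of them had only 2 counts, and the 4 at 16 weeks lay above all 4 at 12 weeks.

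Among the 3 diet times, the highest group mean was at 12 weeks in 157 of the 200 rows, at 16 weeks in 30 and at 24 weeks in 13. The level filter takes part in this, since 19 of the 200 rows passed it through the 12-week group alone and 8 through the 16-week group alone. Among the 162 rows that passed in a group used for the ranking, 130 were highest at 12 weeks, against 45.4% of all rows that passed so. Of the 13336 rows that passed the level filter, 45.5%, 33.0% and 21.5% were highest at these times. The order depended on which libraries were left out. Without replicate A of the 12-week group, 64 of the 200 rows were highest at 12 weeks, against 41.5% of the 13336 rows. Without the highest library of each diet group it was 102 of the 200 rows against 42.4%. The share was then still above that of all rows. Of the 13 rows that were highest at 24 weeks, 10 had their highest value in replicate D of that group.

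The step from 12 to 16 weeks was tested in groups that were not used to rank the rows, although the level filter read both. The counts of the 16 WD libraries were fitted together with edgeR's quasi-likelihood test, and p-values were adjusted over 13510 rows by Benjamini-Hochberg. A call needed an FDR of 0.05 or lower and a log2CPM over 2 in the mean of the compared libraries. By this rule 3 of the 200 rows rose and 3 fell, and 1 of the 200 was not tested. Of all rows tested, 8.29% rose and 3.4% fell. The share of the 200 rows that fell was below that of all rows in 13 of 18 settings tried and above it in 5, so no difference is read from it. Among the 162 rows that passed the level filter in a group used for the ranking, 2 rose and 1 fell. The share of all rows that passed so is not given, so no difference is read from these counts. The log2 fold change was above 0 in 26 of the rows, against 41.3% of all rows tested, and its median was -0.45, against -0.10 over all rows tested. Without replicate A at 12 weeks the median was 0.12 and 120 rows were above 0 (49.2% of all rows). In that fit 5 rows rose and 3 fell, against 8.74% and 4.34% of all rows. Leaving out any of the other 7 libraries gave medians between -0.65 and -0.32. Without replicate A at 16 weeks 13 rows fell (4.46% of all rows), and without replicate C or D at 16 weeks 1 did (0.574% and 0.593%). The direction of the median thus rested on replicate A at 12 weeks.

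Of the rows that rose, row 8153, described above, had a log2 fold change of 3.10 ± 0.64 (SE, edgeR FDR = 0.00598). Row 20684 fell from 28.8, 36.7, 14.9 and 28.5 CPM to 13.4, 7.30, 7.21 and 2.78 CPM. Its log2 fold change was -1.88 ± 0.41 (edgeR FDR = 0.00803), and its groups did not overlap. Rows 16612 and 16859 were also called, but each passed the level filter only in the higher of the compared groups, which favours the difference, so their values are given without the test. Row 16612 had 5.46, 2.89, 2.38 and 2.00 CPM at 12 weeks and 12.5, 5.05, 10.5 and 5.96 CPM at 16 weeks. Row 16859 had 10.3, 5.77, 11.2 and 10.2 CPM at 12 weeks and 2.26, 3.09, 2.52 and 2.38 CPM at 16 weeks.

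The 4 libraries of a diet group differed widely in the 200 rows, and they did so together. Replicate A was the highest of the 12-week libraries in 176 of the 200 rows, against 33.4% of all rows with a mean count over 3. Replicate A was also the highest at 16 weeks, in 165 rows against 24.3%, and replicate D at 24 weeks, in 143 rows against 39.2%. Replicate D was the lowest at 12 weeks in 128 rows (16.2% of all rows), and replicate B the lowest at 24 weeks in 131 (27%). Among chow-fed mice replicate A was the highest in 79 of the 130 rows with a mean count over 3, against 28.5% of all rows. In the CCl4 experiment, vehicle replicate A was the highest in 78 of 130 rows (28.3% of all rows) and replicate B at 8 weeks in 82 of 125 (34.9%). In IVT no library was highest in more than 40.6% of the 200 rows that passed this floor.

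For comparison, a second list was made of the 200 rows that rose most in both mouse models and were flat in culture (the 200 with the highest lower value of W and C), which shares no row with the first. At 12 weeks its median log2(CPM + 1) was 3.17, 3.78, 3.25 and 3.84 in replicates A to D, where the WD-only rows had 6.12, 4.58, 4.62 and 4.40. At 16 weeks it was 5.16, 4.95, 6.52 and 6.44, where the WD-only rows had 5.16, 4.32, 4.75 and 4.32. Replicate A, the highest library for the WD-only rows at both times, had the lowest median of this list at 12 weeks and the second lowest at 16 weeks, and was highest in 13% and 3% of its rows. By summed CPM it was the second highest at 12 weeks, with 5479 CPM against 5675, 3772 and 4783 CPM in replicates B to D. At 24 weeks replicate D was the highest library for both lists. The list also differed in its course, since all 4 of its library medians at 16 weeks lay above all 4 at 12 weeks. No test of these differences between the lists was made, and both lists were ranked with the 24-week libraries.

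**Figure D4:**
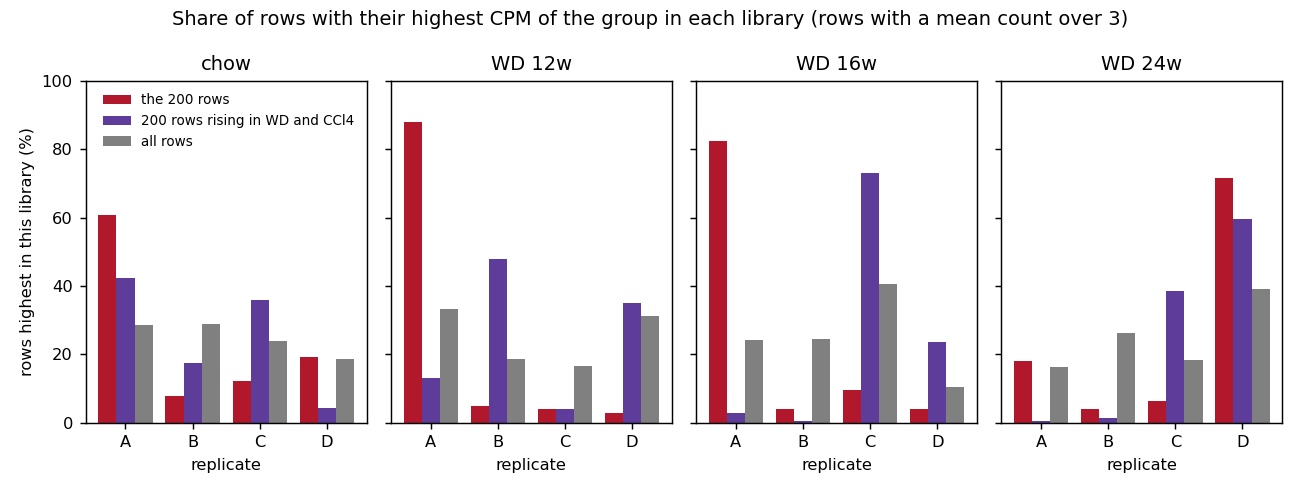
Share of rows (%) that had their highest CPM of the group in each library, for chow and for the 3 WD times, over rows with a mean count over 3 in that group. Red bars stand for the 200 WD-only rows, purple bars for the 200 rows that rose in both WD and CCl4, and grey bars for all rows. Replicate A holds 88.0% and 82.5% of the WD-only rows at 12 and 16 weeks and replicate D holds 71.5% at 24 weeks.

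The shared movement also showed in the deviations of log2(CPM + 1) from the group means. Over the 8 libraries of 12 and 16 weeks the median correlation between pairs of the 200 rows was 0.78, against 0.02 for pairs of all rows. It was 0.55 without replicate A at 12 weeks and 0.30 without replicate A of both groups. Over the 7 libraries of 1 and 4 weeks of CCl4 it was 0.19, in 113 of the rows, and over the 9 libraries of days 1 to 8 in culture it was 0.04, in 74 rows. The rows share their libraries and the depth of each, and no test was made. The coefficient of variation between the 4 libraries had a median of 60.8% at 12 weeks, 36.8% at 16 weeks and 37.1% at 24 weeks. Rows in the same range of levels had 21.5%, 21.8% and 23.2%. The larger spread was not particular to the diet groups. It was 55.7% against 26.9% with chow, 64.2% against 27.9% with vehicle, and 34.6%, 40.6% and 42.4% against 22.4%, 29.0% and 27.6% at 1, 4 and 8 weeks of CCl4. In culture it was 24.9% against 23.1% at d0, 12.2% against 11.2% at day 1, 9.49% against 9.90% at day 4, 13.3% against 9.60% at day 8 and 14.8% against 10.99% at day 12. What differs between these mice, or between the cells sorted from them, was not tested.

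Single libraries carried part of W. The highest library held a median of 37.0% of the summed CPM of the 4 libraries at 24 weeks, where equal libraries would give 25%. It held more than 50% in 24 rows, and in 23 of them this library was replicate D. Among the 6005 rows whose L at 24 weeks lay in the middle range of the 200, that median was 31.7%, and 2.33% of the rows were over 50%. These shares come from the group that ranked the rows and are a description. Row 7713 was the extreme, with 1.62, 1.94, 2.74 and 21.9 CPM in replicates A to D, followed by row 19090 with 1.62, 1.08, 5.07 and 25.1 CPM. Row 9264, with 25.9%, and row 848, at 5.34, 4.95, 5.07 and 5.62 CPM, were the most even. Row 848 was even at 24 weeks only, since at 12 weeks it held 19.0 CPM in replicate A and between 4.95 and 6.33 CPM in the others.

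The groups of CCl4 and IVT that had not been used to rank the rows gave a second view of how far the pattern belongs to WD. The 8 libraries of 12 and 16 weeks of WD all lay above the 7 libraries of 1 and 4 weeks of CCl4 in 181 of the 200 rows, against 8.68% of the 13336 rows that passed the level filter. They all lay above the 9 IVT libraries of days 1, 4 and 8 in 182 rows, against 20.9%, and above both sets in 172 rows, against 7.32%. Among the 162 rows that passed the level filter in a group used for the ranking, these counts were 150, 150 and 144. Of all 13078 rows that passed so, the shares were 8.37%, 20.7% and 7.02%. In none of the 200 rows did all 8 lie below either set, against 5.81% of all rows for CCl4 and 23.4% for IVT. Some rows were nevertheless as abundant elsewhere. In 6 of the 200 rows (12007, 7574, 23150, 3192, 15311 and 6024) the mean CPM of an IVT group was above all 3 diet means, and in rows 16279 and 15311 that of a group of the CCl4 experiment was, all named here after their values were seen. Since each experiment has its own libraries and times, treatment, duration and experiment cannot be told apart here.

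In edgeR's quasi-likelihood test over the mouse libraries, 132 of the 200 rows were higher at 12 weeks of WD than at 1 week of CCl4, against 14.5% of 14120 rows tested. No row was called lower, against 6.91% of all rows tested. At an unadjusted p below 0.05 none of the 200 was lower and 194 were higher. The share of all rows at that threshold is not given, so no difference is read from these 2 counts. At 16 weeks of WD against 4 weeks of CCl4, 110 rows were higher, against 23.3%, and none lower, against 18.3%, though 1 was called lower with library totals or with only the compared groups in the fit. At 16 weeks of WD against day 8 of culture, 111 rows were higher, against 31.2% of 14881 rows, and none lower, against 25.7%. In both of these comparisons no row of the 200 was lower at an unadjusted p below 0.05 in the fits as described. Here too the share of all rows is not given. Of the 162 rows that passed the level filter in a group used for the ranking, 130, 108 and 111 were called higher in the 3 comparisons. The share of all rows that passed so is not given beside these counts. The count of called rows is held down by the minimum level, because the mean log2CPM over 2 groups was above 2 in 136, 114 and 116 of the 200 rows. Without that minimum 193 rows were higher in the first comparison, against 17% of all rows tested, 195 in the second, against 27%, and 194 in the third, against 38.2%. The median log2 fold change was 5.43, 5.24 and 6.98 in the 3 comparisons, against -0.01, 0.06 and 0.09 over all rows tested. The mean count was at most 3 in 104 of the 200 rows at 4 weeks of CCl4 and in 131 at day 8 of culture. The medians of these 2 comparisons are therefore not exact sizes. The fit of WD with culture also pooled the spread of mice and cultures, at 0.229 against 0.300 in WD alone. Its calls rest on that pooled spread.

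**Figure D5:**
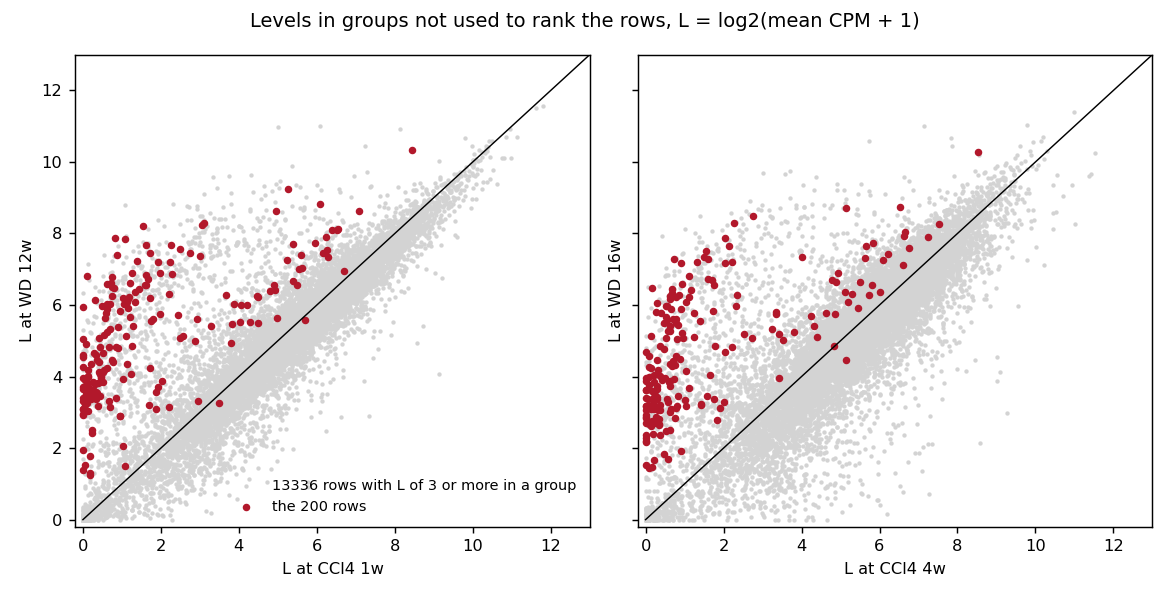
L at 12 weeks of WD against 1 week of CCl4 (left) and L at 16 weeks of WD against 4 weeks of CCl4 (right), with 1 point per row on log2 axes and a line of equal levels. Red points are the 200 rows and grey points the 13336 rows with an L of at least 3 in some group. Most red points lie far above the line, and a small number lie close to it. The median L of the 200 rows was 5.11 against 0.90 on the left and 4.68 against 0.73 on the right.

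Row 20331 had a log2 fold change of 7.24 ± 0.76 (SE, edgeR FDR = 7.89e-08) between 12 weeks of WD and 1 week of CCl4, and 7.25 ± 0.70 (edgeR FDR = 8.3e-09) between 16 weeks and 4 weeks. Row 9264, which was abundant in every group, had 2.06 ± 0.24 (edgeR FDR = 2.91e-07) and 1.98 ± 0.22 (edgeR FDR = 5.34e-08). Row 15311 was higher at 12 weeks of WD than at 1 week of CCl4 but not at 16 weeks against 4 weeks, where it held 20.1, 18.8, 25.1 and 19.9 CPM in WD and 40.8, 34.7, 28.2 and 32.2 CPM in CCl4. It was thus a member by its flat ends that lay higher in CCl4 at an intermediate time, without passing the test there in the fit as described, and it was the row called lower in the other fits named above.

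Within the CCl4 course most of the 200 rows were too low to be tested. The test kept 94 of them, and 7 rose and 7 fell from 1 to 4 weeks, against 20.2% and 20.4% of 13513 rows. Of the 94, 48 reached the mean level that a call needed. Without replicate A at 1 week 2 rows rose, and without replicate B at 1 week 4 rose and 4 fell. Row 13477 had the largest fold change of the 14 rows called. It held 33.9, 28.8 and 26.9 CPM at 1 week, 3.58, 4.40, 7.66 and 7.21 CPM at 4 weeks, and 20.4, 12.1 and 11.8 CPM at 8 weeks, against 20.1, 10.3, 8.86 and 9.02 CPM with vehicle. Its groups at 1 and 4 weeks were far apart, with a log2 fold change of -2.50 ± 0.31 (edgeR FDR = 2.72e-05), and under WD it held between 225 and 580.5 CPM. Row 12704 fell from 43.0, 44.0 and 36.2 CPM to 11.03, 13.2, 22.0 and 14.2 CPM. Its log2 fold change was -1.57 ± 0.24 (edgeR FDR = 0.000152). Row 6727 rose from 1.85, 3.19 and 3.85 CPM to 9.10, 13.8, 8.49 and 10.6 CPM, a log2 fold change of 1.71 ± 0.46 (edgeR FDR = 0.00782), a call lost without replicate A at 1 week. Row 15311 rose from 11.1, 10.0 and 17.3 CPM to the 4-week values above, a log2 fold change of 1.28 ± 0.23 (edgeR FDR = 0.000444). Equal ends at vehicle and 8 weeks therefore did not mean a flat course in these rows.

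Relative to vehicle, L was higher by at least 1 in 2 rows at 1 week of CCl4 and in 1 row at 4 weeks, and lower by at least 1 in 16 and 27 rows. The rows were 13477 and 23009 at 1 week and 11512 at 4 weeks, named after their values were seen. The median difference from vehicle was -0.25 at 1 week and -0.28 at 4 weeks. These differences share the vehicle libraries with C and have no test.

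In culture the test kept 61 of the 200 rows. From day 1 to day 4, 14 rose and 12 fell, against 26.9% and 28.3% of 13655 rows tested, and from day 4 to day 8, 5 rose and 7 fell, against 14.7% and 13.1%. The 7 falls became 3 to 5 when any 1 library of days 4 and 8 was left out, against 9.02% to 9.78% of all rows. They became 4 with DESeq2 (12.2%) or with no filter (8.75%), and 13 with only the compared groups in the fit (27.1%). The members tested were those with the highest levels in culture. Rows 9264 and 18076 passed through a deep trough at day 1. Row 9264 held 306, 243 and 334 CPM at d0, 31.5, 30.2 and 26.4 CPM at day 1, 146, 149 and 146 CPM at day 4 and 230, 234 and 228 CPM at day 12. Its log2 fold change from day 1 to day 4 was 2.34 ± 0.11 (edgeR FDR = 6.8e-12), and it rose again from day 4 to day 8 by 0.83 ± 0.09 (edgeR FDR = 2.22e-06). Row 18076 held 18.6, 16.7 and 16.0 CPM at d0, 2.89, 2.55 and 2.41 CPM at day 1 and 17.8, 16.1 and 19.2 CPM at day 4, a log2 fold change of 2.76 ± 0.16 (edgeR FDR = 1.75e-10). In both rows the 3 libraries of day 1 lay well below those of all other days.

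Other rows had a peak at day 1 or day 4. Row 23150 held 75.7, 40.4 and 61.0 CPM at d0, 155, 153 and 159 CPM at day 1 and 70.8, 74.2 and 70.2 CPM at day 4, falling by 1.10 on the log2 scale (SE 0.13, edgeR FDR = 8.99e-07). Its diet means were 48.5, 59.4 and 51.6 CPM at 12, 16 and 24 weeks, and its culture means ran from 52.8 to 155.7 CPM. Row 16621 went from 5.41, 7.63 and 5.62 CPM to 12.2, 13.3 and 12.7 CPM and back to 3.95, 2.03 and 5.43 CPM, with a log2 fold change of -1.72 ± 0.25 in the second step (edgeR FDR = 1.33e-05). Row 21300 held 39.2, 36.6 and 40.9 CPM at day 4 and 16.2, 15.6 and 18.6 CPM at day 8, a log2 fold change of -1.20 ± 0.14 (edgeR FDR = 3.91e-06). Row 13477, which had also moved in CCl4, fell from 8.84, 9.12 and 11.1 CPM to 5.06, 5.11 and 6.34 CPM (log2 fold change -0.80 ± 0.16, edgeR FDR = 0.000998). Rows 12007 and 23203 rose from day 4 to day 8. Row 12007 went from 6.40, 3.91 and 4.55 CPM to 8.33, 10.7 and 11.9 CPM. Row 23203 went from 3.95, 3.04 and 3.52 CPM to 7.73, 6.16 and 7.53 CPM. Both had log2 fold changes near 1, of 1.06 ± 0.21 (edgeR FDR = 0.000809) and 1.03 ± 0.23 (edgeR FDR = 0.00216). Row 12007 had a mean of 10.3 CPM at day 8 and of at most 6.43 CPM at a diet time. Over the 200 rows, L at day 1 was at least 1 above d0 in 7 rows and at least 1 below it in 13. At day 8 it was within 1 of d0 in all of them. No share of all rows is given beside these counts, and 119 of the 200 rows were at the floor at both d0 and day 12.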

How the data were processed

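The authors aligned reads to mm10 with STAR and deposited raw exon counts per gene, which Homer made from reads of either strand, keeping up to 3 reads that start at one position and condensing the transcripts of a gene. The command in the header of all 3 deposited tables lists the same libraries, so columns were assigned by their titles, which match the labels. Depths are given in the report.

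CPM used the column sums of all rows. Members and lists were chosen with earlier results of these data known. Counts were tested with edgeR 4.0.16 in R 4.3.3 (TMM, filterByExpr, quasi-likelihood test, Benjamini-Hochberg adjustment over all rows tested), within WD, CCl4 and IVT, and in joint fits of WD with CCl4 and WD with IVT. Calls needed an FDR of 0.05 or lower and a log2CPM over 2 in the mean of both groups. The SE of a log2 fold change is approximate, taken as its absolute value divided by the square root of the test's F statistic. Data were simulated for 16 against 12 weeks of WD, over 20290 rows. The test recovered 26% of 2-fold and 93% of 4-fold changes, and 7.03% of its calls were false. The simulation gave every row the same spread and let rows vary independently. The 200 rows spread more widely (median coefficient of variation 60.8% at 12 weeks) and moved together, so these rates do not hold for them.

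Named rows were the 6 of highest W, the 3 of highest CPM at 24 weeks, those at the rank limit, the 2 highest and 2 lowest called in each within-experiment test, the 3 highest outside WD, and the 2 with the largest and smallest share in 1 library. Alternatives were DESeq2 1.42.0, the edgeR exact test, other scalings, filters, thresholds and pseudocounts, the replicate letter as a block, and leaving out libraries. The lowest chi-square per row between replicates was 1.07, in replicates A and B of day 8 in culture, close to but above the 1 that sampling noise gives, and no libraries were merged.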

Additional observations from a re-analysis of the deposited data

Results flagged for a closer look

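In groups of 4 libraries, 193 sets of values (33 named rows with a mean count over 3, total counts, and the medians and sums over the 200 rows) were searched for a library whose gap to its neighbour was large against the range of the group (Dixon's 95% limit). There were 24 such values. Chance gives about 1 in 20 for a set chosen without regard to its values. That rate does not hold here, because the sets share their libraries, the 24-week, chow and vehicle values entered the ranking, and rows 7713 and 19090 were named for 1 high library at 24 weeks.

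Replicate A at 12 weeks of WD stood apart in 12 of them, always as the highest. Its median log2(CPM + 1) over the 200 rows was 6.12, against 4.40 to 4.62 in the other 3 libraries. It held 215.5 CPM of row 20331, 141.6 of row 8060, 109.0 of row 18076, 137.5 of row 12114, 106.4 of row 6727 and 50.95 of row 15311. It held 172.7 CPM of row 16621, 135.6 of row 21300, 303.4 of row 14025 and 19.02 of row 848, and 212.4 of row 8397, which is just outside the 200. Its total count of 6045174 was the highest of its group, and the library with an outlying total was replicate B, at 2425443 counts against at least 5892116 in the others.

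Replicate D at 24 weeks stood apart as the highest library with 107.9 CPM of row 20331, 209.7 of row 17545, 71.05 of row 18076, 21.86 of row 7713 and 25.14 of row 19090. At 16 weeks, replicate A was high with 204.3 CPM of row 15634 and replicate B was low with 46.31 CPM of row 11606. Among chow libraries, replicate A was high with 7.404 CPM of row 17545, replicate B was low with 8.268 CPM of row 15311 and replicate C was low with 0.5108 CPM of row 16612. Vehicle replicate A was high with 20.06 CPM of row 13477. Why these libraries stand apart was not tested.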

How the results depend on the processing

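Membership depended on the scale. With a pseudocount of 0.25 or 5 CPM in place of 1, the rule kept 98 or 60 of the 200 rows, and with limits of 0.25 or 1 on C and V it kept 72 or 69. Leaving out 1 library kept 160 rows or more. The median rise at 12 weeks was 4.24 or 1.84 with these pseudocounts (2.85 to 3.53 leaving out 1 library), and at 16 weeks 3.88 or 1.497 (2.64 to 3.05). For 16 against 12 weeks of WD, 6 rows rose with no minimum level (9.23% of all rows tested). With only the compared groups 1 rose (5.97%). Falls numbered 8 with DESeq2 (6.05%), 7 with the exact test (4.69%) and 9 with a replicate block, the letter as a term (5.21%). Leaving out 1 library gave 1 to 5 rises and 1 to 13 falls, the 13 without replicate A at 16 weeks (4.46% of all rows). The other ranges of called rows from leaving out 1 library are given here without the share of all rows, so no difference is read from them. For 4 against 1 week of CCl4, rises numbered 11 with library totals (26.3% of all rows) and 4 with no filter (11.9%). At 2-fold or more 2 rose (8.04%) and 2 fell (7.59%). Leaving out 1 library gave 2 to 8 rises and 4 to 10 falls. For culture at 2-fold or more, 4 rows rose (8.69% of all rows) and 3 fell (3.83%) from day 1 to 4. From day 4 to 8, 2 rose (3.11%) and 1 fell (1.22%). Leaving out 1 library gave 12 to 14 rises and 10 to 12 falls from day 1 to 4. From day 4 to 8 it gave 4 to 5 and 3 to 5. Falls from day 4 to 8 numbered 4 with DESeq2 (12.2% of all rows), its size factors (11.5%), no filter (8.75%) or the block (12.5%). They numbered 13 with only the compared groups (27.1%). For 16 weeks of WD without the minimum level, 195 rows were above CCl4 (27% of all rows) and 194 above culture (38.2%). Leaving out 1 library gave 113 to 153 rows higher at 12 weeks of WD than at 1 week of CCl4, 89 to 122 at 16 against 4 weeks, and 86 to 128 against culture. The causes of these changes were not tested. Libraries were not treated as pairs by letter, because the lowest correlation of same-letter deviations was below 0.1 in every pair of groups. With 3 or 4 letters per pair of groups, this lowest value cannot exclude pairing. Between 12 and 16 weeks of WD the correlations ran from -0.38 to 0.22. Apart from the counts above, the block moved no other count of the 200 rows by more than 1.5 times. Without replicate A at 12 weeks the median change from 12 to 16 weeks turned positive, and the share of the 200 rows highest at 12 weeks went from above to below that of all rows. The correlation and highest-group counts without single libraries and the counts over the 162 rows were added after seeing the data.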
